A study of Mus musculus with 6 samples.

Results

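Chemokines are small secreted proteins that attract leukocytes through G protein-coupled receptors. They are classed by the spacing of their first cysteines into CC, CXC, XC and CX3C ligands, and most are induced by inflammatory signals through NF-kappaB, interferon or STAT6. The 9 chemokine genes described here are Ccl1, Ccl3, Ccl4, Ccl5, Ccl17, Ccl22, Cxcl2, Cxcl10 and Xcl1, taken by symbol from a table of 18543 genes. Rows were found for 7 of the 9, while Ccl17 and Xcl1 are not analysed here. The cells were group 2 innate lymphoid cells (ILC2s), tissue lymphocytes that respond to epithelial alarmins with type 2 cytokines. They were sorted from the lungs of C57BL/6 mice 8 weeks old that had received 0.5 µg of recombinant mouse IL-33 intranasally on each of 3 days, and were isolated on day 4. There were 3 libraries from wild-type mice and 3 from Atg5-/- mice, all given IL-33, each made from 10 ng of RNA. No group without IL-33 is analysed here, and the labels do not say whether the Atg5 deletion was limited to some cells. Libraries are called by their labels, WT 1 to WT 3 and KO 1 to KO 3. In these bulk libraries, fewer cells of a type and less RNA per cell cannot be told apart.

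The libraries did not divide by genotype label. Library totals ran from 28827545 to 33662979 estimated counts, so that the floor of 3 counts set for an undetected gene was 0.0892 to 0.104 CPM (counts scaled to library size). Atg5, the deleted gene, was at 66.3 and 71.8 CPM in WT 1 and WT 2 but at 21.8 CPM in WT 3, below KO 1 (23.0 CPM), KO 2 (25.6 CPM) and KO 3 (52.2 CPM), so WT 3 goes against its label. In its Atg5 level, KO 3 lay nearer to WT 1 than to KO 1 and KO 2. Over all genes tested it did not. There the log2 CPM of KO 3 correlated at r = 0.979 and 0.980 with KO 1 and KO 2, at 0.979 with WT 3 and at 0.933 with WT 1. For WT 3, r was 0.991 and 0.990 with KO 1 and KO 2 but 0.946 and 0.948 with WT 1 and WT 2. All 13 ILC2 markers checked, among them Gata3, Il1rl1 and Il5, were present. Apart from Il5, which was lowest in KO 3 (5352 CPM), they summed to 7787 and 7750 CPM in WT 1 and WT 2 and 5117 to 5495 CPM in the other 4, and without WT 3 edgeR called 8 of the 13 lower and 1 higher in knockout. On all 6 libraries, the quasi-likelihood test of edgeR called 0 of 14052 genes at an adjusted p under 0.05 (2026, or 14.4%, at an unadjusted p under 0.05), and without WT 3 it called 4991 of 14743. For this reason the difference of each tested chemokine of the set is given with and without WT 3, and without KO 3 where that moved it by over 1.5 times, and every direction is one between labels. Nothing in the labels ties each library to a separate mouse, and the p-values then measure only sample-to-sample spread, part of which may be technical.

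Chemokine transcripts of this set were scarce. Summed over the 7 genes they made up 9.21 and 11.3 CPM in WT 1 and WT 2, 20.1 CPM in WT 3, and 20.6, 17.3 and 37.1 CPM in KO 1, KO 2 and KO 3. On the scale of CPM per kilobase of annotated exon, Ccl5 had the highest mean level (5.87 ± 4.56, SD over 6 libraries), followed by Cxcl2 (4.59 ± 1.42). Below them came Cxcl10 (0.945 ± 1.08), Ccl3 (0.810 ± 0.824), Ccl1 (0.494 ± 0.140), Ccl4 (0.129 ± 0.181) and Ccl22 (0.0533 ± 0.131). The ranges over the 6 libraries of neighbours in this order overlapped, except those of Cxcl2 and Cxcl10. Of 18048 genes with annotated exons, 64.2% lay below Ccl5 on this scale, 60.6% below Cxcl2 and 9.31% below Ccl22. The place of Ccl1 depends on its gene model: with only the exons of its protein-coding transcripts it would be at 1.91 CPM per kilobase. In the plot of CPM by library, KO 3 was the highest library for 4 of the 7 genes, namely Ccl3, Ccl5, Cxcl2 and Cxcl10.

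**Figure D1:**
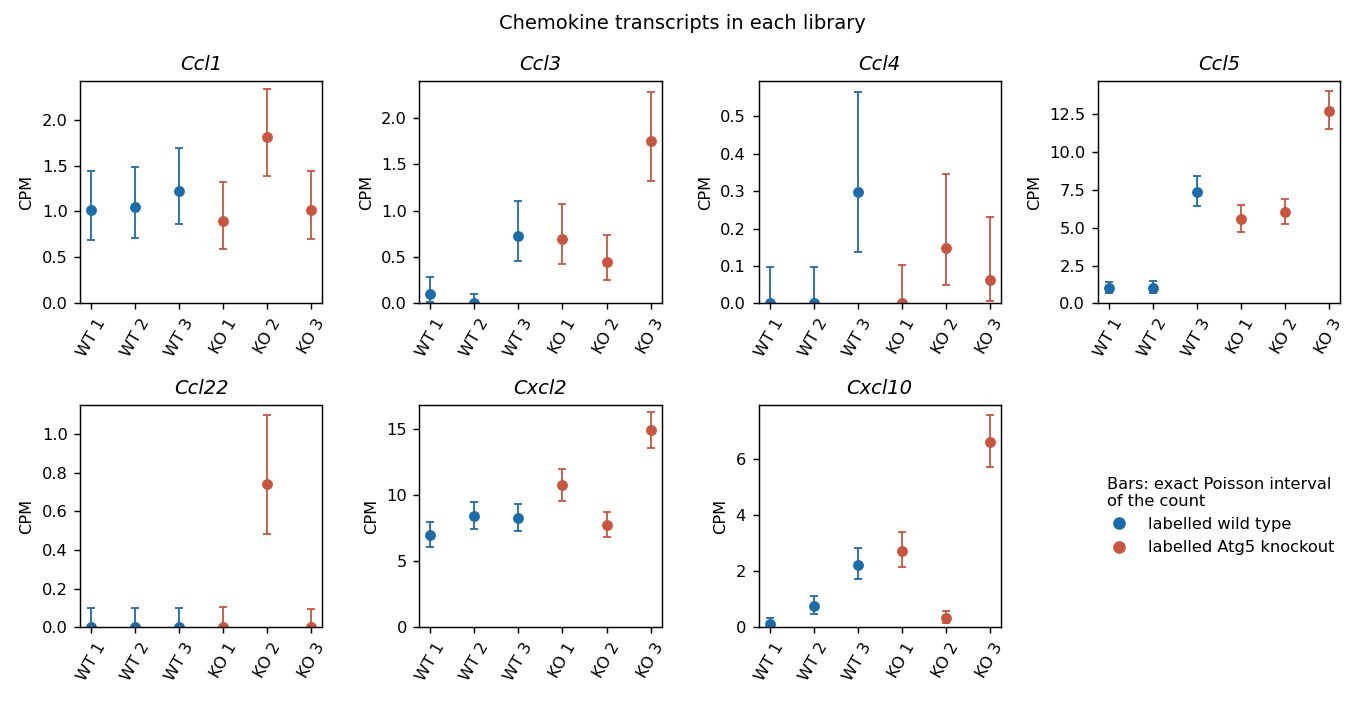
Level of each of the 7 chemokine transcripts in CPM (vertical axes, each with its own scale from 0) in the 6 libraries (horizontal axes), with 95% exact Poisson intervals of the count as bars (for 0 counts, a bar up to the floor of 3 counts). Ccl5 was near 1 CPM in WT 1 and WT 2 and at 5.58 to 12.7 CPM in the other 4 libraries, while Ccl22 was detected in KO 2 only.

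Over the 7 genes, none had its 3 knockout-labelled libraries all above or all below its 3 wild-type-labelled ones, where 18.5% of all genes tested did. The low-count filter kept 5 genes, leaving out Ccl4 and Ccl22. A gene kept only through the libraries where it is high had to differ between libraries, so the count of 5 supports nothing by itself. On all 6 libraries 0 of the 5 passed that edgeR test, against 0% of all genes tested, and 0 had an unadjusted p under 0.05, against 14.4%. DESeq2 also called 0 of them, with no adjusted p for Ccl3. Of all genes it called 2.3%, where those without an adjusted p count as not called. Without WT 3, Ccl3 and Ccl5 rose, 2 of the 5, where 33.9% of all genes passed, 17.7% as higher and 16.1% as lower in knockout. The members' share therefore did not stand clear of the background. Ccl3 entered that test only through the knockout-labelled libraries, where it is high, so its call supports nothing. Without WT 3 and KO 3 together, a comparison of 2 libraries with 2, Ccl3 and Ccl5 passed again, with the same limit for Ccl3. Of all genes, 45.4% passed there and 22.7% passed as higher.

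**Figure D2:**
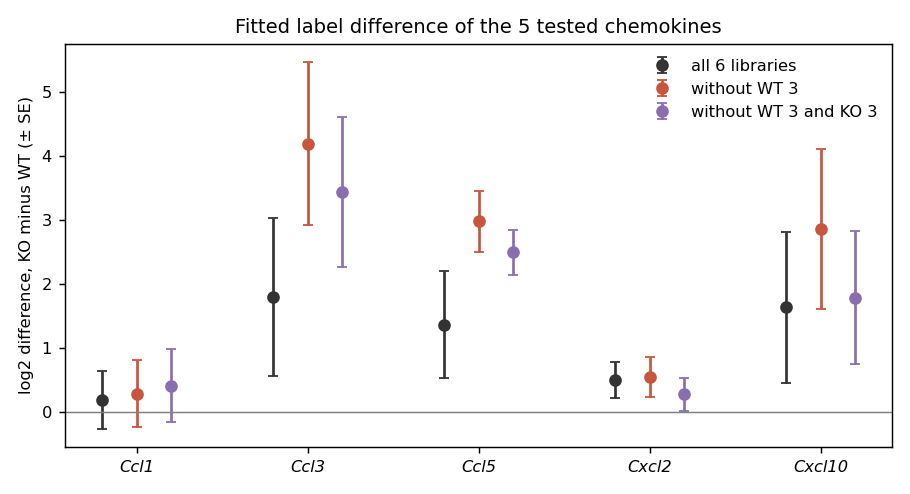
Fitted log2 difference (knockout minus wild type by label, vertical axis, points with SE bars) of the 5 tested chemokines under 3 choices of libraries. For Ccl5 the difference was 1.36 with all 6 libraries, 2.98 without WT 3 and 2.50 without WT 3 and KO 3, while Ccl1 and Cxcl2 stayed within 0.18 to 0.54 in all 3.

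Among the inflammatory CC chemokines, Ccl5 varied with the libraries rather than with the labels. Ccl5 (RANTES), a ligand of CCR1 and CCR3 that draws in T cells, eosinophils and monocytes, is a 3-exon gene at chr11:83525778-83530518 on the reverse strand of mm10. It had 31 and 32 counts in WT 1 and WT 2, 223 in WT 3, and 161, 203 and 399 in KO 1, KO 2 and KO 3. In CPM these are 1.02, 1.05, 7.39, 5.58, 6.04 and 12.7. WT 3 lay between KO 2 and KO 3, so the labels overlapped. The exact Poisson interval of WT 1 (0.690 to 1.44 CPM) lay below that of every library except WT 2, so the gap is larger than counting error. The highest library exceeded the lowest by 7.27-fold under the wild-type label and by 2.28-fold under the knockout label. The mean under the wild-type label was 3.15 ± 3.67 CPM, and under the knockout label it was 8.12 ± 4.00 CPM (SD, n = 3 for both). The log2 difference of 1.36 (SE 0.83) did not pass with all 6 libraries (adjusted p = 0.401, edgeR quasi-likelihood) and was 0.88 without KO 3. Ccl5 rose by 2.98 without WT 3 (SE 0.48, adjusted p = 0.00315) and by 2.50 without WT 3 and KO 3 (SE 0.35, adjusted p = 0.000307, edgeR).

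Ccl3 (MIP-1alpha), a ligand of CCR1 made by many activated leukocytes, lies on the same chromosome (chr11:83647844-83649355, reverse strand, 3 exons), 117 kb from Ccl5. It had 3 counts in WT 1 and 0 in WT 2, but 22 in WT 3 and 20, 15 and 55 in KO 1, KO 2 and KO 3, or 0.0983, 0, 0.729, 0.693, 0.446 and 1.76 CPM. As with Ccl5, WT 1 and WT 2 were lowest, KO 3 was highest and WT 3 lay among the knockout-labelled libraries. The log2 difference was 1.79 with all 6 libraries (SE 1.24, adjusted p = 0.443, edgeR) and 1.04 without KO 3. Without WT 3 Ccl3 passed (adjusted p = 0.0408, edgeR), though WT 1 and WT 2 then hold only 3 counts together. Summed by label without WT 3, 90 counts stood against those 3, a ratio of 19.5 with a 95% exact interval of 6.47 to 96.5 that covers counting error only. Without WT 3, Ccl3 entered the test only through the knockout-labelled libraries, where it is high. Its call and this ratio therefore support nothing by themselves. Ccl4 (MIP-1beta), a chemokine often made together with Ccl3, starts 13.2 kb from it (chr11:83662584-83664683, forward strand, 3 exons) and was hardly detected. It had 0 counts in WT 1, WT 2 and KO 1, 9 in WT 3, 5 in KO 2 and 2 in KO 3, at most 0.298 CPM. Ccl4 was too low to be tested, and its highest library carried the wild-type label.

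Among the chemokines linked to type 2 inflammation, Ccl1 alone had enough counts to be tested, and it did not pass. Ccl1 (TCA-3), the ligand of CCR8, had 31, 32 and 37 counts in WT 1, WT 2 and WT 3 and 26, 61 and 32 in KO 1, KO 2 and KO 3. These are 1.02, 1.05, 1.23, 0.900, 1.81 and 1.02 CPM, with KO 2 highest and KO 1 lowest. The Poisson interval of KO 2 overlapped that of every library except KO 1, and the other intervals overlapped one another. The log2 difference was 0.18 with all 6 libraries (SE 0.45, adjusted p = 0.834, edgeR) and 0.28 without WT 3 (SE 0.52, adjusted p = 0.730, edgeR). It was 0.31 without KO 3, 0.37 without KO 1 and 0.11 without WT 1, and it turned to -0.22 without KO 2. The gene is annotated at chr11:82176657-82305690 on the reverse strand because of 1 long transcript that codes for no protein. Protein-coding transcripts account for 613 of its 2369 exonic bases, so counts of Ccl1 need not all come from the chemokine message. Ccl22 (MDC), a CCR4 ligand typical of dendritic cells and macrophages, is at chr8:94745590-94751699 on the forward strand and has 3 exons. All 25 of its counts were in KO 2 (0.744 CPM), and a count of 0 in the other libraries allows, at the floor of 3 counts, up to 0.0957 to 0.104 CPM. Ccl17 (TARC), the other CCR4 ligand, is annotated 58.8 kb from Ccl22 and is not analysed here. KO 2 was also the library in which Scgb1a1, a secretoglobin of airway club cells, reached 15.0 CPM against at most 0.232 CPM in any other, and its part in the Ccl22 value was not tested.

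Cxcl2 (MIP-2), a CXCR2 ligand that attracts neutrophils, varied less between libraries than Ccl5 and Cxcl10. It lies at chr5:90903871-90905938 on the forward strand, with 3 exons in the longest transcript that codes for protein. Cxcl2 measured 6.95, 8.41 and 8.25 CPM in WT 1, WT 2 and WT 3 and 10.7, 7.73 and 14.9 CPM in KO 1, KO 2 and KO 3. KO 2 lay below WT 2 and WT 3, and the highest library exceeded the lowest by 2.14-fold. The exact Poisson interval of KO 3 (13.6 to 16.3 CPM) lay above that of every other library, so the spread is beyond counting error. The mean was 7.87 ± 0.80 CPM by the wild-type label against 11.1 ± 3.6 CPM by the knockout label (SD, n = 3 for both), and the log2 difference of 0.50 (SE 0.29) did not pass (adjusted p = 0.385, edgeR). It did not pass without WT 3 either (0.54, SE 0.31, adjusted p = 0.228, edgeR), and the difference was 0.24 without KO 3. Estimated counts of Cxcl2 were not whole numbers (211.933 in WT 1, for example), unlike those of the other 6 members. The sources used here do not say how such counts arose, and the level is uncertain.

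Its paralogue Cxcl3, also a CXCR2 ligand and no member of the set, lies 114 kb away (chr5:90786103-90789600, forward strand) and differed widely between libraries. Cxcl3 was at 656 and 711 CPM in WT 1 and WT 2, 28.2 CPM in WT 3, and 26.4, 25.5 and 36.2 CPM in KO 1, KO 2 and KO 3. The log2 difference was -3.99 (SE 1.03, adjusted p = 0.342, edgeR) with all 6 libraries, where DESeq2 gave an adjusted p of 0.0232. Without WT 3 Cxcl3 fell by 4.53 (SE 0.17, adjusted p = 2.1e-05, edgeR). WT 3 thus had the Cxcl3 level of the knockout-labelled libraries, whereas Cxcl2 lay between 6.95 and 14.9 CPM in all 6 libraries. Estimated counts of Cxcl3 were not all whole numbers either (20018.1 in WT 1, for example), so its level is uncertain in the same way. The difference between both genes' responses was not tested.

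**Figure D3:**
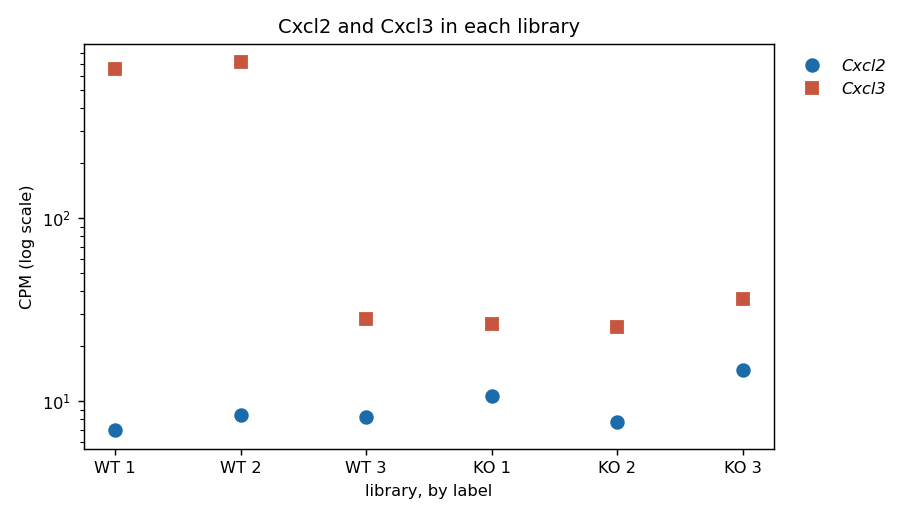
Level of Cxcl2 (circles) and Cxcl3 (squares) in CPM on a log axis (vertical) in the 6 libraries (horizontal). Cxcl3 lay at 656 and 711 CPM in WT 1 and WT 2 and between 25.5 and 36.2 CPM in the other 4, while Cxcl2 lay between 6.95 and 14.9 CPM in all 6.

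The 250 bases before the RefSeq start sites of Cxcl2 and Cxcl3 are shown because the levels of these genes parted, and those of Cxcl10 because it varied widely between libraries (sequences from RefSeq, GRCm38.p6, 5′ to 3′ along the gene). Capitals mark matches to 4 motifs: the TATA box TATAAA on the gene's strand, and on both strands the kappaB consensus of NF-kappaB, the AP-1 motif TGANTCA and an interferon-response pair, GAAA followed by NN and GAAA. The intervals are chr5:90903649-90903898 on the forward strand, chr5:90785851-90786100 on the forward strand and chr5:92348890-92349139 on the reverse strand.
Cxcl2: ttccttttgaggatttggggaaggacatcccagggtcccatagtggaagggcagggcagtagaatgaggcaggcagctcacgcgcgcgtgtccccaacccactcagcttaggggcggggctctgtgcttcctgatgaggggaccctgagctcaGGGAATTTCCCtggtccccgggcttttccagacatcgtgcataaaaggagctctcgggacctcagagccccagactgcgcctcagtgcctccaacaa
Cxcl3: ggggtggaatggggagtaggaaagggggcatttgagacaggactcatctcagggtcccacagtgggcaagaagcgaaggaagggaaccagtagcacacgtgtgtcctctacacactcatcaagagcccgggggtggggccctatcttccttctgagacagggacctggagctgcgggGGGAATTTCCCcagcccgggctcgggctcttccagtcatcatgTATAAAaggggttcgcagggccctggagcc
Cxcl10: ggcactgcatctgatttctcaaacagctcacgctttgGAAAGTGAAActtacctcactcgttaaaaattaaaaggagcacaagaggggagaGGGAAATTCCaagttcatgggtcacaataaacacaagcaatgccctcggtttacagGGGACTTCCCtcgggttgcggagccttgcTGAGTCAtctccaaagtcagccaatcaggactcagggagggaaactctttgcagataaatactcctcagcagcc
Cxcl2 and Cxcl3 carried the same kappaB letters, GGGAATTTCC, starting 97 and 73 bases before the start site, each overlapped by its match on the other strand. Cxcl3 also held TATAAA at 30 bases before the start. Cxcl10 had a kappaB match at 159 bases (GGGAAATTCC) and another at 103 bases (GGGACTTCCC), an AP-1 match at 74 bases and the interferon-response pair GAAAGTGAAA at 213 bases. Among 32851 promoters of this length, 3.9% held a kappaB match, 7.59% TATAAA, 6.75% the AP-1 motif and 2.98% the interferon-response pair. RefSeq promoters were found for 7 of the 9 members. In those of Ccl1, Ccl3, Ccl17, Ccl22 and Xcl1, none of the 4 motifs was matched in this window. A match is a string of letters and shows no binding.

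Cxcl10 (IP-10), the interferon-inducible ligand of CXCR3, varied most of the members with counts in every library. It lies at chr5:92346638-92348889 on the reverse strand, with 3 exons in its longest protein-coding transcript, and shares exonic bases with Art3 on the other strand, from which its reads cannot be told apart if strand was not used. It had 4, 23 and 67 counts in WT 1, WT 2 and WT 3 and 79, 11 and 207 in KO 1, KO 2 and KO 3. These are 0.131, 0.753 and 2.22 CPM under the wild-type label and 2.74, 0.327 and 6.61 CPM under the knockout label. KO 2 lay below WT 2, and KO 3 exceeded KO 2 by 20.2-fold, a spread within 1 label that is beyond counting error (exact Poisson intervals 0.163 to 0.586 and 5.74 to 7.57 CPM). The log2 difference was 1.63 (SE 1.18, adjusted p = 0.462, edgeR) with all 6 libraries and 2.86 (SE 1.25, adjusted p = 0.123, edgeR) without WT 3. Cxcl10 passed in neither, and the difference was 0.56 without KO 3. Its order over the libraries was not that of Ccl5, since KO 2 was among the low libraries for Cxcl10 and among the high ones for Ccl5.

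By the rule for genes of like profile, which took members with a mean of at least 10 CPM, no gene was to be named, as Cxcl2 reached 9.50 CPM. The following were chosen after values were seen. The profile of log2(CPM + 0.5) over the 6 libraries most like that of Ccl5 belonged to Jun, which encodes an AP-1 subunit. Their root mean square difference was 0.047 log2 units. Jun was at 12.2 and 12.3 CPM in WT 1 and WT 2, 65.1 CPM in WT 3, and 50.2, 53.2 and 100 CPM in KO 1, KO 2 and KO 3. Next to Ccl5 came Slc7a3, a cationic amino acid transporter (0.145). For Ccl3 the nearest were Ttll11 (0.107) and Hs3st3b1 (0.123), and for Cxcl2 Syne4 (0.0878) and Wdsub1 (0.0947). The added 0.5 CPM narrows the spread of Ccl5, at 1.02 CPM in WT 1, more than that of Jun, so their closeness depends on it. Ccl3, with 0 counts in WT 2, has no log2 profile without it. These likenesses describe 6 libraries that fall into separate groups, and no test goes with them.

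Receptors of these chemokines parted in direction. Of 9 receptor genes 7 had a row and 5 were tested. With all 6 libraries edgeR called 0, with a median log2 difference of 0.03 against 0.02 over all genes tested. DESeq2 called 2 lower on the same counts, Ccr1 and Ccr3, against 2.3% of all genes. Without WT 3, Ccr4 and Ccr8 rose and Ccr1 and Ccr3 fell (edgeR), 4 of 5 against 33.9% of all genes. Ccr8, the receptor of CCL1, was at 59.2 and 63.9 CPM in WT 1 and WT 2 and at 127 to 130 CPM in the other 4 libraries. Ccr4, the receptor of CCL17 and CCL22, was at 23.7 and 24.9 CPM, then 120 CPM in WT 3, then 115, 118 and 139 CPM in KO 1 to KO 3. Ccr1, which binds CCL3 and CCL5, ran the other way from those ligands. It was at 84.1 and 89.2 CPM in WT 1 and WT 2, 16.4 CPM in WT 3 and from 11.6 to 19.7 CPM in KO 1 to KO 3. Xcr1, the receptor of XCL1, lay between 42.0 and 52.1 CPM in every library (log2 difference 0.03, SE 0.14, adjusted p = 0.913 with all 6 libraries and 0.01, SE 0.13, adjusted p = 0.973 without WT 3, edgeR). Cxcr3, the CXCL10 receptor, was at most 0.360 CPM. Cxcr2 and Ackr1 are not analysed here.

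**Figure D4:**
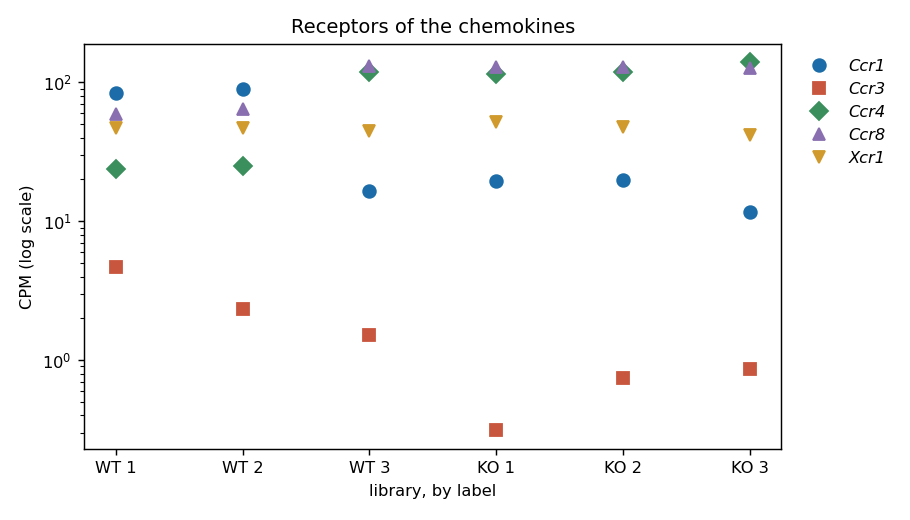
Level of 5 receptor genes in CPM on a log axis (vertical) in the 6 libraries (horizontal). Ccr4 and Ccr8 were higher, and Ccr1 and Ccr3 lower, in WT 3 and the 3 knockout-labelled libraries than in WT 1 and WT 2, while Xcr1 lay between 42.0 and 52.1 CPM throughout.

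Other chemokine ligands were mostly near or below detection. Of 32 further ligand genes 13 had a row, and 5 were tested with all 6 libraries, of which 0 passed (median log2 difference 0.66 against 0.02 over all genes). DESeq2 called 1 of the 5, Cxcl3, against 2.3% of all genes, and gave no adjusted p for Ccl6 and Cx3cl1. Without WT 3, where 33.9% of all genes passed, Cxcl3 fell and Cxcl16 was called higher. Cxcl5 and Ccl27a entered that test only through WT 1 and WT 2, where they are high, and so had to differ; their calls as lower support nothing. Besides Cxcl3, the highest in CPM were Ccl25 and Cxcl16. Ccl25, the CCR9 ligand, was at 5.24, 5.56 and 4.47 CPM in the wild-type-labelled libraries and 7.83, 7.76 and 9.92 CPM in the knockout-labelled ones. Its labels did not overlap, as in 18.5% of all genes tested, and it did not pass (log2 difference 0.74, SE 0.24, adjusted p = 0.342 with all 6 libraries and 0.66, SE 0.24, adjusted p = 0.0748 without WT 3, edgeR). Protein-coding transcripts account for 1555 of its 7445 exonic bases. Its estimated counts were not whole numbers (159.64 in WT 1, for example), so its level is uncertain. Cxcl16, the transmembrane CXCR6 ligand, was at 0.721 and 0.295 CPM in WT 1 and WT 2, 5.63 CPM in WT 3, and 6.16, 7.26 and 7.98 CPM in KO 1 to KO 3. The log2 difference of Cxcl16 was 1.69 with all 6 libraries (SE 0.96, adjusted p = 0.384, edgeR) and 3.81 without WT 3 (SE 0.45, adjusted p = 0.000909, edgeR). Without WT 3, Cxcl16 entered the test only through the knockout-labelled libraries, where it is high, so its call supports nothing by itself.

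Genes that regulate chemokine transcription or message decay divided in the same manner. All 24 listed were tested, and 0 passed edgeR's test with all 6 libraries (median log2 difference 0.11). DESeq2 called 1 of the 24 lower on the same counts, Nfatc2 (adjusted p = 0.0403), against 2.3% of all genes called. Without WT 3, 12 rose and 8 fell (edgeR, median 0.13), against 33.9% of all genes called. Nfkbia, the NF-kappaB inhibitor that NF-kappaB itself induces, was at 201 and 193 CPM in WT 1 and WT 2, 704 CPM in WT 3, and 763, 830 and 794 CPM in KO 1 to KO 3. Nfkb2 had 313 and 306 CPM in WT 1 and WT 2, 383 CPM in WT 3 and 361 to 415 CPM in KO 1 to KO 3. Il4ra, which signals to STAT6, lay the other way, at 477 and 496 CPM in WT 1 and WT 2, 304 CPM in WT 3 and 269 to 365 CPM in KO 1 to KO 3. With all 6 libraries the log2 differences were 1.12 for Nfkbia (adjusted p = 0.350), 0.20 for Nfkb2 (adjusted p = 0.495) and -0.44 for Il4ra (adjusted p = 0.370, all edgeR). Without WT 3, Nfkbia rose by 2.02 (SE 0.09, adjusted p = 3.08e-05), Nfkb2 rose by 0.31 (SE 0.09, adjusted p = 0.0378) and Il4ra fell by 0.63 (SE 0.13, adjusted p = 0.00968, all edgeR).

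Other leukocytes also make these chemokines, and their marker sums were mostly set by 1 gene each. The 10 T and NK cell markers summed to 41.1 and 44.0 CPM in WT 1 and WT 2 and 17.7 to 24.0 CPM in the other 4 libraries, and 3 of them are not analysed here. That gap was mostly in Cd3g, at 35.3 and 37.2 CPM against 11.4 to 18.8 CPM. Without Cd3g the sums overlapped, at 5.83 and 6.71 CPM against 4.43 to 6.38 CPM. Cd3e overlapped too, at 3.15 and 2.39 CPM against 2.80 to 4.41 CPM. Gzma and Prf1 were low but did not overlap. Gzma was at 1.31 and 1.41 CPM in WT 1 and WT 2 against at most 0.133 CPM. Prf1 was at 0.754 and 1.60 CPM against at most 0.520 CPM. The 9 macrophage and monocyte markers, led by Cd68, summed to 11.8 and 10.6 CPM in WT 1 and WT 2 and 2.39 to 6.16 CPM in the rest. Without Cd68 the sums were 4.06 and 3.14 CPM against 0.191 to 2.84 CPM. For the 8 granulocyte and mast cell markers, led by Cpa3, the sums were 12.8 and 8.44 CPM against 0.542 to 4.26 CPM. For the 8 dendritic cell markers, led by Cd74, they were 66.0 and 61.9 CPM against 33.8 to 56.3 CPM. Without Cd74 the sums were 15.6 and 21.6 CPM in WT 1 and WT 2 against 8.20 to 11.6 CPM in the rest. Most of this was H2-Ab1, at 14.7 and 17.0 CPM in WT 1 and WT 2 against 5.84 to 9.16 CPM. Fscn1 did not overlap either, at 0.492 and 1.15 CPM against at most 0.173 CPM. Zbtb46 overlapped, at 0.459 and 2.36 CPM against 1.78 to 3.98 CPM, and so did Itgax and Flt3. The 4 B cell markers, led by Cd79b, summed to 13.5 to 19.5 CPM by wild-type label and 6.67 to 14.3 CPM by knockout label. Epithelial, stromal and endothelial markers did not move as 1 group. Pecam1, an endothelial marker that leukocytes also express, was at 10.4 and 8.54 CPM in WT 1 and WT 2 but 92.0 to 131 CPM in the other 4. Epcam, an epithelial marker, ran the other way, at 57.4 and 52.3 CPM in WT 1 and WT 2 against 8.90 to 14.3 CPM. The part of these markers in the Ccl3 and Ccl5 values was not tested.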

How the data were processed

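Messenger RNA was measured in 6 libraries, grouped and numbered by sample titles, and table columns were matched through the sample descriptions. The authors deposited estimated counts per gene, of which 47.1% to 48.5% per library were whole numbers (within 1e-06). CASAVA 1.8.2, Partek, STAR and mm10 are listed in the submitters' processing notes, without their roles. Whether strand was used is not given there. A second deposited table of scaled counts was not used. 1 item is not reported here and is left out of the counts.

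Estimated counts were rounded, and edgeR 4.0.16 in R 4.3.3 tested them (filterByExpr, TMM, robust glmQLFit, glmQLFTest), with Benjamini-Hochberg adjustment over all genes and a threshold of 0.05. SEs were derived from the log2 difference and its F statistic. Rounded counts over TMM-adjusted library sizes gave CPM, and 0.5 CPM was added before log2 for profiles. The code was tested on simulated data. Exons are from GENCODE vM21 and promoters from RefSeq GRCm38.p6. Alternatives used DESeq2 1.42.0, limma 3.58.1, other scalings and filters, the replicate number as a block, and fewer libraries. Members, lists and rules were chosen with earlier results of these data known. All 9 members were to be named, with the 3 genes highest in CPM of each related list and the highest marker of each other cell type. Further genes of these lists were named after their values were seen. Intervals and floors describe counting error alone, as the labels mention no molecular identifiers and reads cannot be taken as independent molecules.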

Additional observations from a re-analysis of the deposited data

How the results depend on the processing

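With all 6 libraries the number of genes called was 0 under edgeR with every scaling and filter tried, with limma-voom and with the replicate block, but DESeq2 called 323 genes, none of them a member of the set. Leaving out 1 library gave 0 to 4991 genes and 0 to 2 members called, in each case 0 unless WT 3 was the one left out. Without WT 3 and KO 3 together, 6505 genes and 2 members were called. The log2 difference of Ccl1 ran from -0.22 to 0.37 when 1 library was left out and was 0.41 without WT 3 and KO 3, and turned only without KO 2. Of 67 refits of the 5 tested members that gave an adjusted p, 62 kept direction and side of the threshold and 1 turned. Another 4 newly passed: Ccl3 and Ccl5 without WT 3, and without WT 3 and KO 3. In those, Ccl3 entered the test only through knockout-labelled libraries, so its calls support nothing. Ccl1 and Ccl3 did not pass the filter of 2 CPM in 3 libraries and have no value there, and DESeq2 gave no adjusted p for Ccl3. Deviations of same-numbered libraries from their label means correlated at r = -0.037, 0.020 and -0.008. This cannot settle whether replicate numbers pair the samples, because WT 3 stood far from WT 1 and WT 2. With the replicate block 0 members were called, and the log2 difference of Ccl5 was 1.90 (adjusted p = 0.333, edgeR). Depth limits Ccl4, Ccl22 and the low libraries of Ccl3, where a few reads decide the level.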

Other observations

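Some weakly expressed ligands outside the set were detected in 1 or 2 libraries only. Cxcl5, a further CXCR2 ligand of the chromosome 5 cluster, 24.5 kb from Cxcl3, had 49 and 68 counts in WT 1 and WT 2 and 0 in the other 4 libraries. It was too low to be tested with all 6 libraries. Ppbp, a platelet chemokine of the same cluster, had 32 counts in WT 1 and 0 in every other library, and Pf4, another platelet chemokine, had at most 9. Cxcl1, 10.8 kb from Cxcl2, had at most 12 counts in any library. Genes with at least 25 counts in 1 library and 0 in the other 5, as Ccl22 had in KO 2, numbered 3 in KO 2 and 12 in KO 3, against 1 in each of the other 4 libraries. These genes were chosen after their values were seen.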
